A study of Mus musculus with 11 samples.

Results

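The 10 genes described here encode proteins that limit oxidative damage, break down heme or bind metals: Hmox1, Nqo1, Gclc, Gclm, Srxn1, Txnrd1, Slc7a11, Gsr, Mt1 and Mt2. They were chosen by name for these functions, with earlier results of these data known. All 10 were found among the 55421 genes of the count table. RNA was measured in 11 mouse hearts, each from a different female C57BL/6J mouse at the age of 8 weeks. In 8 mice, the left anterior descending coronary artery had been ligated, which stops the blood flow to a part of the heart muscle and so produces a myocardial infarction (MI), and tissue was taken 3 days later. Of these mice, 4 received the ADAM10 inhibitor GI254023X (A10i) at 100 mg/kg and 4 received its solvent DMSO, in both cases from osmotic minipumps. The other 3 mice had sham surgery, received DMSO as well and gave healthy heart tissue. The infarcted hearts gave the infarct together with its border zone, so that a comparison with sham also compares pieces of tissue of different cell composition. GI254023X is a hydroxamate that blocks ADAM10, a membrane protease that sheds the ectodomains of other membrane proteins. It was given to the whole animal, and no mouse carried a transgene or a deletion.

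NRF2, encoded by Nfe2l2, is the transcription factor that switches on many antioxidant genes. It is held in the cytosol and marked for degradation by KEAP1 and CUL3, and it escapes when reactive molecules modify KEAP1. In the nucleus it pairs with a small MAF protein and binds antioxidant response elements (ARE), from which BACH1 is displaced by heme. Metallothionein genes are controlled mainly by MTF1, which senses free zinc and binds metal response elements (MRE). The ischemic heart is exposed to oxidants, to heme and iron from damaged muscle and red blood cells, and to the oxidative burst of invading leukocytes.

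The total count per heart lay between 21702623 and 29511768 reads on genes. Mitochondrial genes held 21.5 to 22.2% of these reads in sham, 14.8 to 18.6% in DMSO and 15.7 to 17.9% in A10i hearts. The summed cardiomyocyte markers, such as Myh6 and Tnnt2, were present in every heart and ranged from 70935 to 72166 CPM in sham, from 33997 to 49254 in DMSO and from 40521 to 55049 in A10i hearts. CPM are counts divided by the library size after TMM scaling, which corrects for differences in composition between libraries. In such bulk tissue, fewer cells of a type and less RNA per cell cannot be told apart.

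On the mm10 assembly, Hmox1 (ENSMUSG00000005413) lies at chr8:75093621-75100589, Mt2 (ENSMUSG00000031762) at chr8:94172664-94173568 and Mt1 (ENSMUSG00000031765) at chr8:94179082-94180327, the last 2 next to each other on the plus strand. Slc7a11 (ENSMUSG00000027737) lies at chr3:49892526-50443614 and Gclm (ENSMUSG00000028124) at chr3:122245557-122270732. Gclc (ENSMUSG00000032350) is at chr9:77754535-77794485, Gsr (ENSMUSG00000031584) at chr8:33652523-33698163 and Srxn1 (ENSMUSG00000032802) at chr2:152105516-152111376. Txnrd1 (ENSMUSG00000020250) is at chr10:82833951-82897712 and Nqo1 (ENSMUSG00000003849) at chr8:107388225-107403206. The values refer to all exons of each gene together. Of the overlapping genes in the annotation, Gm45774 on the strand opposite to Mt2 had at most 75 counts in any library, Gm38560 opposite to Txnrd1 at most 55 and Gm6061 within Gclm at most 32, all small beside the counts of these 3 genes.

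MI raised most of these genes. In DMSO against sham hearts, 8 of the 10 were higher at an adjusted p under 0.01 (quasi-likelihood test of edgeR, adjusted after Benjamini and Hochberg), and none was lower, while 12.9% of the 17117 genes tested were higher and 9.6% lower. The median log2 fold change of the 10 genes was 0.91, against 0.00 for all genes tested. All 10 passed the filter on low counts, but Slc7a11 did so through the DMSO hearts alone, the group in which it is high, and is given here as a description. Of the other 9 genes, 7 were higher. For each of the 10 genes, every DMSO heart lay above every sham heart, which held for 25.1% of all genes tested. In A10i against sham hearts, 5 of the 9 genes tested were higher and none was lower, against a background of 13.7% higher and 9.11% lower among 16971 genes, and the median of the 9 genes was 0.47. All A10i hearts lay above all sham hearts for 6 of the 9 genes, against 24.8% of all genes tested. The 5 genes past the threshold, Hmox1, Mt1, Mt2, Srxn1 and Txnrd1, were also among the 8 of the DMSO comparison, with which they share the sham hearts. The count of 8 fell to 6 when any 1 of the sham hearts S1, S2 or S3 was left out, and the count of 5 fell to 2. In the same fits the number of all genes past the threshold fell from 3858 to between 1525 and 1542 in DMSO and from 3879 to between 1620 and 1714 in A10i against sham. Without A10i heart A116 or A117 the count of 5 became 3, while 4365 and 3711 of all genes were past the threshold.

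**Figure D1:**
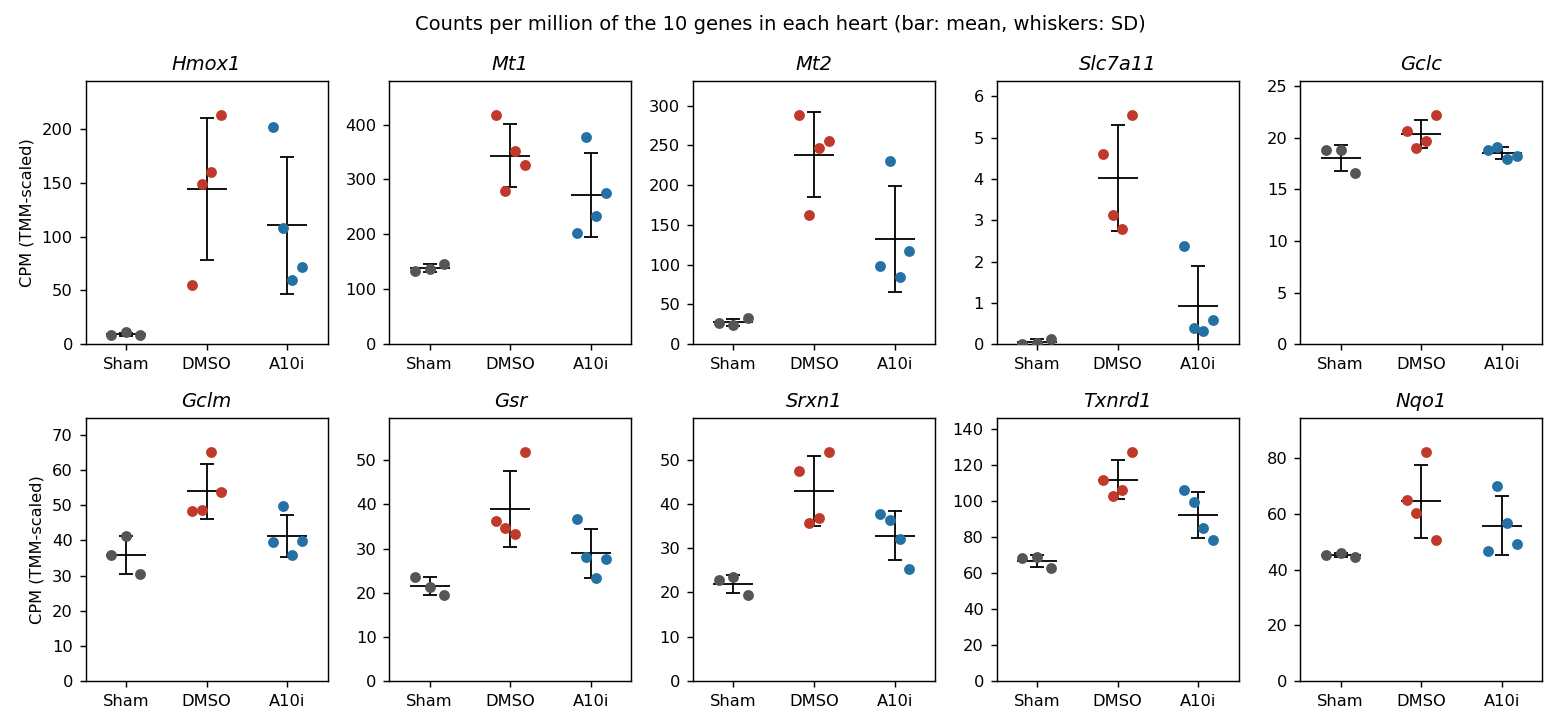
Each panel plots the CPM of 1 gene (vertical axis, starting at 0) for the sham, DMSO and A10i hearts; points are hearts, the horizontal bar is the mean and the whiskers are the SD, cut at 0 where they would fall below it. Hmox1, Mt2 and Slc7a11 stand far above sham in the DMSO hearts, Gclc hardly moves, and in the A10i group 1 heart stands apart for Slc7a11 (2.38 CPM).

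Per annotated exon length, the metallothioneins were the most abundant of the 10. In TPM, the transcript level corrected for gene length, sham hearts held 235 ± 12.2 of Mt1 (SD, n = 3) and 99.4 ± 15.3 of Mt2, followed by Nqo1 at 61.3 ± 1.10 and Txnrd1 at 19.7 ± 1.07. Gsr (16.4 ± 1.504) and Srxn1 (16.4 ± 1.57) did not differ beyond their spread, and neither did Gclm (12.0 ± 1.86), Hmox1 (11.1 ± 1.76) and Gclc (10.1 ± 0.718). In the DMSO hearts the order changed. Mt2 came first with 1005 ± 220 TPM (SD, n = 4), and Mt1 followed with 682 ± 83.3. The exon length used was 1246 bases for Mt1, its whole span from start to end, and 588 bases for Mt2. The order of these 2 genes in TPM depends on these lengths, since every DMSO heart had fewer Mt2 than Mt1 reads. Hmox1 moved from the eighth to the third place with 211 ± 109. The A10i hearts had the same order as the DMSO hearts, with Mt2 at 552 ± 268 and Mt1 at 535 ± 138, which did not differ beyond their spread, and Hmox1 at 159 ± 104. Slc7a11 was last in all groups, at 0.00799 ± 0.00936 TPM in sham, 0.723 ± 0.271 in DMSO and 0.171 ± 0.194 in A10i hearts.

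Hmox1 encodes heme oxygenase 1, the inducible enzyme that splits heme into biliverdin, iron and carbon monoxide. Its level was 8.36, 10.9 and 8.47 CPM in the sham hearts S1, S2 and S3. In the DMSO hearts it was 55.1 in A105, 149 in A127, 160 in A128 and 213 in A129, and in the A10i hearts 201 in A116, 107 in A117, 60.0 in A119 and 72.0 in A120. The sham hearts were close together, all 8 infarcted hearts lay above them, and the DMSO and A10i hearts overlapped over most of their range. The log2 fold change was 3.96 ± 0.44 (SE, adjusted p = 0.000361) in DMSO against sham, 3.58 ± 0.48 (adjusted p = 0.00151) in A10i against sham, and -0.39 ± 0.44 (adjusted p = 0.754) in A10i against DMSO hearts. The 2 infarcted hearts with the highest Hmox1, A129 and A116, belonged to different groups. They also had the highest summed macrophage markers of their groups, 497 and 685 CPM, and the highest summed fibroblast markers, 3443 and 5067 CPM. By contrast, A128 had the second highest Hmox1 of the DMSO hearts and their lowest macrophage sum, 308 CPM. The part of cell composition in the Hmox1 level was not tested.

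The metallothioneins Mt1 and Mt2 are small cysteine-rich proteins that bind zinc, copper and cadmium. Mt2 was at 26.4, 24.4 and 32.6 CPM in sham hearts S1, S2 and S3, at 288, 162, 247 and 255 in DMSO hearts A105, A127, A128 and A129, and at 98.2, 230.0, 84.1 and 117.5 in A10i hearts A116, A117, A119 and A120. All infarcted hearts were above sham, and among the A10i hearts only A117 reached the range of the DMSO hearts. Mt2 rose by 3.09 ± 0.21 on the log2 scale in DMSO (SE, adjusted p = 4.4e-05) and by 2.26 ± 0.36 in A10i hearts (adjusted p = 0.00227) against sham. Without A10i heart A116 the latter value was 2.38 with an adjusted p of 0.0195.

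Mt1 was at 133, 138 and 147 CPM in the sham hearts, at 417, 279, 352 and 326 in the DMSO hearts and at 203, 378, 233 and 275 in the A10i hearts, in the same order of hearts. It rose less than Mt2, with a log2 fold change of 1.30 ± 0.14 in DMSO (SE, adjusted p = 0.000206) and of 0.97 ± 0.19 in A10i hearts (adjusted p = 0.00439) against sham. The latter adjusted p lay above 0.01 without S1, S2, S3 or A120, reaching at most 0.0231. Between A10i and DMSO hearts, Mt1 differed by -0.33 ± 0.20 (adjusted p = 0.499) and Mt2 by -0.84 ± 0.31 (adjusted p = 0.272). A117 had the highest level of both genes among the A10i hearts, and A127 the lowest among the DMSO hearts.

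Because both genes share a neighbourhood and a family, the ratio of their counts was computed within each heart, a measure that no scaling of the library can change but that is not corrected for length. The Mt2 to Mt1 ratio was 0.198, 0.177 and 0.222 in sham hearts S1, S2 and S3, and 0.690, 0.581, 0.701 and 0.783 in DMSO hearts A105, A127, A128 and A129. In A10i hearts A116, A117, A119 and A120 it was 0.484, 0.608, 0.361 and 0.427. The sham hearts did not overlap with either infarcted group, and A117 with the highest ratio of the A10i hearts lay above DMSO heart A127. On the log2 scale, the ratio was higher by 1.79 in DMSO and by 1.22 in A10i hearts than in sham (exact permutation test, two-sided, p = 0.0286 each, the smallest that 35 groupings allow, adjusted p = 0.0571 over 6 tests). It was lower by 0.57 in A10i than in DMSO hearts, the difference being -0.57 (exact permutation test, two-sided, p = 0.0571, adjusted p = 0.0857), and without A117 it was -0.70 (p = 0.0286). With 6 tests, none was past 0.05 after adjustment.

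The start regions of both genes are shown since their RNAs moved together but by different amounts. They are RefSeq sequences on GRCm38.p6, the same assembly as mm10, from 250 bases before to 30 bases after the start of the RefSeq transcript, read on the strand of the gene. Capitals mark matches on either strand to the metal response element core (TGCACNC or TGCGCNC), to the ARE core (TGACNNNGC) or to the AP-1 site (TGACTCA). An AP-1 site followed by GC is also an ARE core, so that these 2 motifs can overlap.
Mt1, plus strand, chr8:94178839-94179118: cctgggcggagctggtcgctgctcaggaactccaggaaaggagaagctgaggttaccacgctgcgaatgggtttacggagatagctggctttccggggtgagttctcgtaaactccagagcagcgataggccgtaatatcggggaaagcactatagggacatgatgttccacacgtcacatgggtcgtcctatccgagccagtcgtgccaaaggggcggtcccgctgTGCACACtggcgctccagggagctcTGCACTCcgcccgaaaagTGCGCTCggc
Mt2, plus strand, chr8:94172368-94172647: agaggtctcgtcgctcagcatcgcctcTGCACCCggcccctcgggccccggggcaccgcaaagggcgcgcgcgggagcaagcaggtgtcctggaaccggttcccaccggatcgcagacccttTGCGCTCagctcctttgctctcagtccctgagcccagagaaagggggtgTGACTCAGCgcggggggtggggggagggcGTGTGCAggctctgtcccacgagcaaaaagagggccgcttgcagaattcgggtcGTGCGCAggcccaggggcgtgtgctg
The Mt1 window held 3 metal response element cores, which began at -23, 3 and 21, counted from the RefSeq start. The Mt2 window held 4, at -223, -128, -50 and 5, and a sequence at -79 that matched both the AP-1 site and the ARE core. The Mt2 window ends at 94172647, before the start of Mt2 in the count table (94172664). The Mt1 window ends at 94179118, past the start of Mt1 there (94179082). The windows thus cover different parts of the 2 genes, and their numbers of cores cannot be compared. Among 32851 RefSeq windows of the same length, 24.1% held a metal response element core, 11.5% an ARE core and 4.94% an AP-1 site. A match is a description of the letters and not a measured binding site.

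Slc7a11 encodes the transport subunit of the cystine and glutamate exchanger xc-, which brings in cystine for glutathione synthesis. It was close to absent in sham hearts, with 0, 1 and 3 reads in S1, S2 and S3. DMSO hearts A105, A127, A128 and A129 had 109, 93, 84 and 141 reads, or 4.60, 3.12, 2.80 and 5.54 CPM. A10i hearts A116, A117, A119 and A120 had 60, 10, 8 and 13 reads, or 2.38, 0.387, 0.330 and 0.585 CPM. The 3 groups did not overlap, and A116 stood close to the DMSO hearts while the other 3 A10i hearts were far below them.

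Summed over hearts, the Slc7a11 level in DMSO hearts was 73.0 times that in sham hearts, with a 95% counting interval of 28.3 to 269 that rests on 4 sham reads. The A10i hearts were at 17.4 times the sham level (6.57 to 65.3) and at 0.238 times the DMSO level (0.188 to 0.300). Of the 91 A10i reads, 60 came from A116, and without this heart the values were 8.00 (2.83 to 31.2) and 0.110 (0.0735 to 0.158). Without S3, which held 3 of the 4 sham reads, the folds against sham were 195 (34.8 to 7722) in DMSO and 46.5 (8.14 to 1857) in A10i hearts. These intervals cover counting error only and not the spread between hearts. In both edgeR fits that hold Slc7a11, it passed the filter through the DMSO hearts, the group in which it is high, so that its p-values there are a description. The adjusted p was 0.000111 for DMSO against sham hearts and 0.156 for A10i against DMSO hearts. In A10i against sham hearts its counts did not pass the filter of edgeR, and DESeq2 gave a log2 fold change of 4.12 ± 1.05 (SE, adjusted p = 0.000537) that rests on the same 4 sham reads. In A10i against DMSO hearts the log2 fold change was -2.10 ± 0.55 (SE), and no gene was past 0.01 in that edgeR comparison. DESeq2's Wald test gave -2.13 ± 0.53 with an adjusted p of 0.00636, past 0.01, as for 0.714% of the 17508 genes that it tested in the lower direction. Without A116, edgeR gave -3.19 with an adjusted p of 0.0306.

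The start region of Slc7a11 is shown because this gene had the largest fold change of the 10; capitals mark matches to the C/EBP-ATF element (TGATGNAA), the sequence through which ATF4 acts in amino acid shortage.
Slc7a11, minus strand, chr3:50443584-50443863: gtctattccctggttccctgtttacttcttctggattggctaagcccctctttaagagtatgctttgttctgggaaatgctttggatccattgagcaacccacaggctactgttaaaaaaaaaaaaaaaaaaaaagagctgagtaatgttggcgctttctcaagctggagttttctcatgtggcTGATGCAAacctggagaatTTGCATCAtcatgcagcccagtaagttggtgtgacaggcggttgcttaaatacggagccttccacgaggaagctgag
The window held 2 such elements on opposite strands, at -66 and -47, whereas 3.81% of the 32851 windows held at least 1. No ARE core, AP-1 site or metal response element core was found in this window.

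Neutrophil markers were measured in the same hearts. The summed level of 9 neutrophil markers, among them S100a8 and S100a9, was 2.08, 1.05 and 1.57 CPM in sham hearts S1, S2 and S3. It was 94.3, 68.5, 110 and 126 CPM in DMSO hearts A105, A127, A128 and A129, and 48.0, 27.5, 13.8 and 27.8 CPM in A10i hearts A116, A117, A119 and A120. As for Slc7a11, the groups did not overlap, A129 was the highest of the DMSO hearts and A116 the highest of the A10i hearts. Within the DMSO group the orders differed otherwise, since A128 had the second highest neutrophil sum and the lowest Slc7a11 level. Of the 9 markers, 6 passed the filter on low counts, and these 6 were higher in DMSO and in A10i than in sham hearts. In A10i against DMSO hearts none of the 6 was past an adjusted p of 0.01 by edgeR, and DESeq2 called 4 of them. All 6 were below 0 with a median log2 fold change of -1.74 and an unadjusted p under 0.05 by edgeR. Of all genes tested there, 6.73% were lower at that unadjusted p, and DESeq2 called 0.714% lower. A marker can pass the filter through the hearts in which it is high, and the sham sums were very low. These counts of the 6 markers are therefore a description. The defining marker Ly6g was at 0 in every sham heart and at 0.155 ± 0.104 CPM in DMSO and 0.0900 ± 0.0561 CPM in A10i hearts. The summed monocyte markers were 4.76 to 5.89 CPM in sham, 51.6 to 140 in DMSO and 33.8 to 83.3 in A10i hearts. The part of leukocyte number in the Slc7a11 result was not tested.

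**Figure D2:**
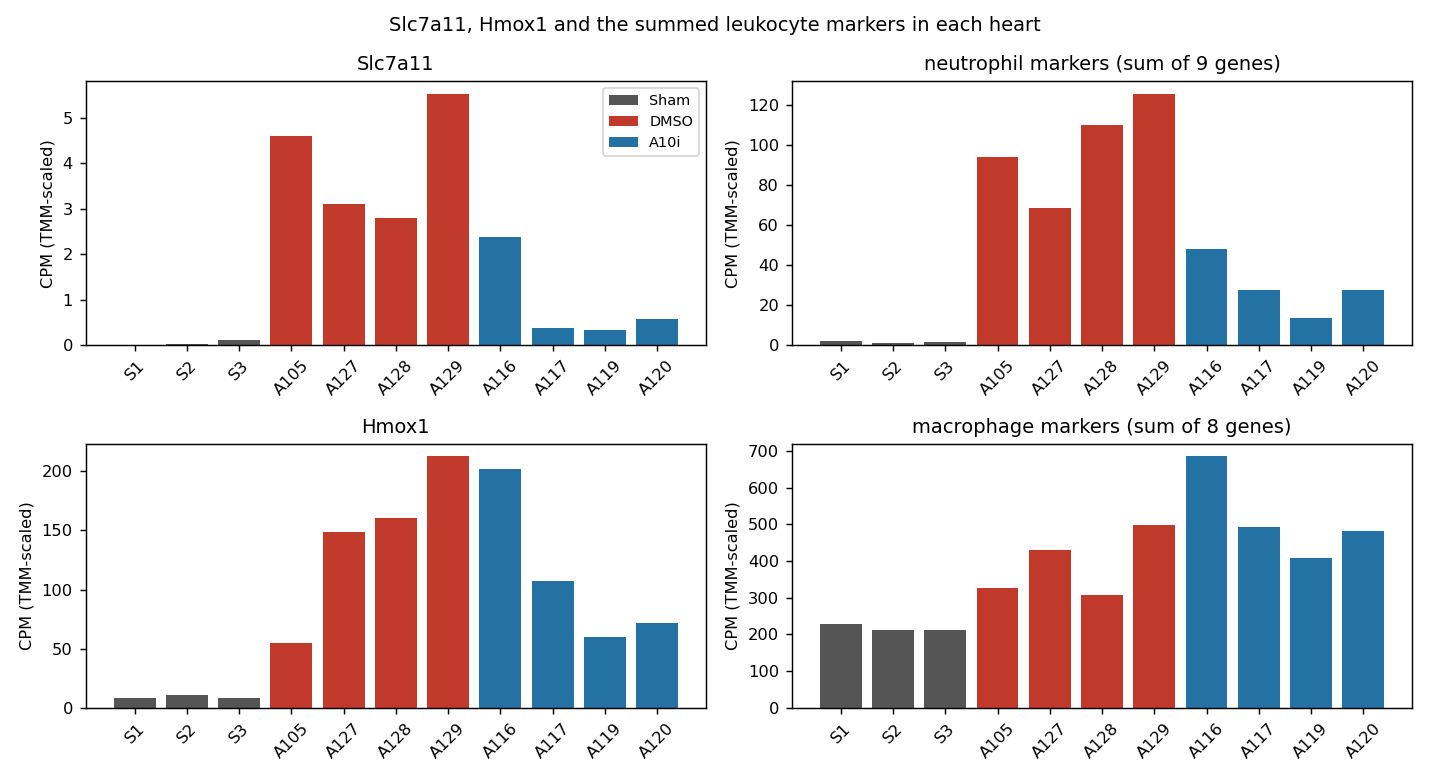
Bars give the CPM (vertical axes, from 0) of Slc7a11, of the sum of 9 neutrophil markers, of Hmox1 and of the sum of 8 macrophage markers in each of the 11 hearts, coloured by group. Slc7a11 and the neutrophil sum are near 0 in sham, highest in the DMSO hearts and highest in A116 among the A10i hearts, while the macrophage sum is 409 to 685 CPM in A10i and 308 to 497 in DMSO hearts.

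Gclc and Gclm encode the catalytic and the modifier subunit of glutamate-cysteine ligase, the rate-limiting enzyme of glutathione synthesis, and Gsr encodes glutathione reductase, which regenerates it. Gclm was at 35.8, 41.4 and 30.4 CPM in the sham hearts S1 to S3, at 48.3, 48.7, 65.2 and 53.9 in the DMSO hearts and at 39.6, 49.7, 35.7 and 39.8 in the A10i hearts. Its rise in DMSO hearts was 0.59 ± 0.13 (log2 fold change, SE, adjusted p = 0.00748), while A10i hearts overlapped with sham (0.20 ± 0.13, adjusted p = 0.244). The adjusted p of the DMSO comparison lay above 0.01 when any of S1, S2, S3, A127 or A129 was left out, and was at most 0.0399. Gclc was at 16.5 to 18.8 CPM in sham, 18.9 to 22.2 in DMSO and 17.9 to 19.1 in A10i hearts, and its difference from sham was 0.17 ± 0.09 in DMSO (adjusted p = 0.176) and 0.04 ± 0.08 in A10i hearts (adjusted p = 0.707).

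The 2 subunits were also compared within each heart. The Gclm to Gclc ratio of counts was 1.91, 2.20 and 1.84 in the sham hearts, 2.34, 2.57, 3.32 and 2.43 in the DMSO hearts and 2.10, 2.60, 2.00 and 2.19 in the A10i hearts. Every DMSO heart was above every sham heart, and the A10i hearts overlapped with both groups. The difference on the log2 scale was 0.42 in DMSO against sham (exact permutation test, two-sided, p = 0.0286, adjusted p = 0.0571), 0.16 in A10i against sham (p = 0.286, adjusted p = 0.286) and -0.26 in A10i against DMSO hearts (p = 0.114, adjusted p = 0.137).

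**Figure D3:**
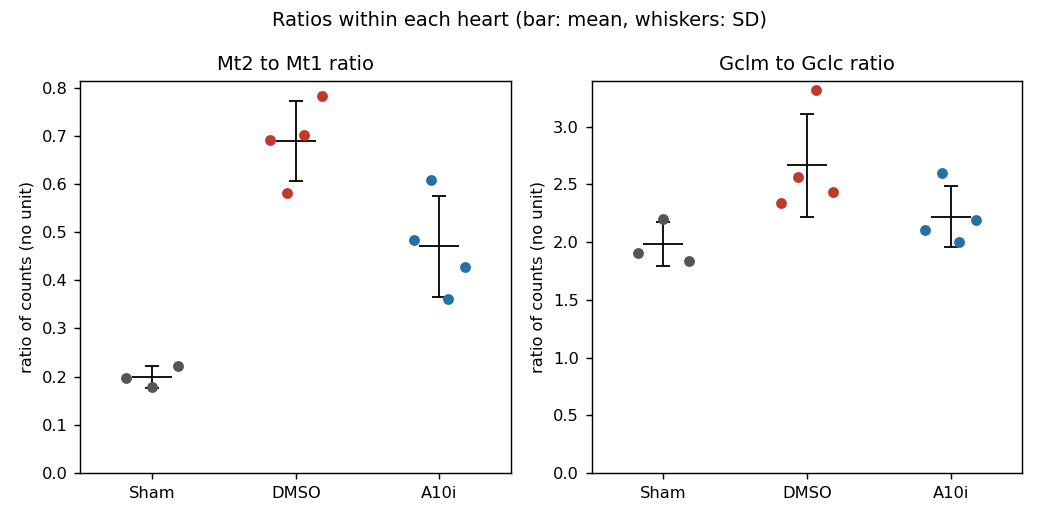
The ratio of the counts of Mt2 to Mt1 (left) and of Gclm to Gclc (right) is plotted for each heart on axes that start at 0; points are hearts, bars are group means and whiskers are the SD. The mean Mt2 to Mt1 ratio is 0.199 in sham, 0.689 in DMSO and 0.470 in A10i hearts, and the mean Gclm to Gclc ratio is 1.98, 2.67 and 2.22.

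Gsr was at 23.6, 21.3 and 19.6 CPM in the sham hearts, at 36.2, 34.7, 33.3 and 51.9 in the DMSO hearts A105, A127, A128 and A129, and at 36.6, 28.1, 23.4 and 27.7 in the A10i hearts A116, A117, A119 and A120. A129 stood above the other DMSO hearts, and A116 above the other A10i hearts. The log2 fold change was 0.86 ± 0.16 in DMSO against sham (SE, adjusted p = 0.0031), and the adjusted p was 0.0109 to 0.0191 when 1 sham heart was left out. Against sham, the A10i hearts gave 0.43 ± 0.14 (adjusted p = 0.0354), with A119 inside the range of sham.

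Srxn1 encodes sulfiredoxin, which repairs overoxidized peroxiredoxins, and Txnrd1 the cytosolic thioredoxin reductase, a selenoprotein that keeps thioredoxin reduced. Srxn1 was at 22.9, 23.4 and 19.5 CPM in sham, 47.3, 35.7, 36.7 and 51.7 in DMSO and 37.6, 36.4, 32.1 and 25.2 in A10i hearts. Txnrd1 was at 68.1, 69.0 and 62.4 CPM in sham, 111, 103, 106 and 126.97 in DMSO and 106, 99.2, 84.6 and 78.1 in A10i hearts. For both genes all infarcted hearts lay above sham and A129 was the highest of all. Srxn1 rose by 0.96 ± 0.15 in DMSO (log2 fold change, SE, adjusted p = 0.00107) and by 0.59 ± 0.14 in A10i hearts (adjusted p = 0.00781). Txnrd1 rose by 0.75 ± 0.09 (adjusted p = 0.000464) and by 0.47 ± 0.10 (adjusted p = 0.00567). The adjusted p of Srxn1 in A10i against sham lay above 0.01 without any 1 of the 7 hearts except A120, and that of Txnrd1 without S1, S2, S3 or A117, both reaching at most 0.0394.

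The start region of Srxn1 is shown as that of the member with 2 AP-1 sites, with capitals for matches to the AP-1 site and to the metal response element core.
Srxn1, plus strand, chr2:152105274-152105553: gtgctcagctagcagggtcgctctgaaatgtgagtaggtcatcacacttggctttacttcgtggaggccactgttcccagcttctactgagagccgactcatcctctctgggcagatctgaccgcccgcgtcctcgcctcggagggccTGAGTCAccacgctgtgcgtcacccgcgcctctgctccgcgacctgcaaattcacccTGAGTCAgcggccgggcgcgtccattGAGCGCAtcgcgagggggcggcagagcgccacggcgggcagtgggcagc
The AP-1 sites began at -102 and -45 and the metal response element core at -19. In the windows of the other members, Gclm held 1 ARE core at -134 that overlapped 1 of its 2 metal response element cores, and 1 of the 3 Txnrd1 windows held an ARE core at -92. The window of Nqo1 held none of these motifs. Windows were matched for 7 of the 10 genes, and those of Hmox1, Gclc and Gsr were not analysed here.

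Nqo1 encodes a quinone reductase that is widely used as a marker of NRF2 activity. It was at 45.3, 46.0 and 44.6 CPM in sham, at 64.8, 60.1, 82.2 and 50.7 in DMSO hearts A105, A127, A128 and A129, and at 46.7, 70.2, 56.8 and 49.0 in A10i hearts A116, A117, A119 and A120. The sham hearts hardly differed and all infarcted hearts were above them, but hearts such as A116 and A129 only by little. The log2 fold change was 0.51 ± 0.14 in DMSO (SE, adjusted p = 0.0187) and 0.30 ± 0.13 in A10i hearts (adjusted p = 0.0882) against sham, neither of which passed the threshold of 0.01. DESeq2 gave an adjusted p of 0.00425 for the first, and without A129 edgeR gave 0.61 with 0.00276. A129 and A116, which had the most Hmox1 and Gsr of their groups, had the least Nqo1 of their groups.

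In A10i against DMSO hearts none of the 10 genes was past an adjusted p of 0.01 by edgeR, and neither was any of the 16792 genes tested (0%). The log2 fold changes of all 10 genes were below 0, as were those of 49.3% of all genes tested, and ranged from -2.10 for Slc7a11 to -0.13 for Gclc with a median of -0.38. At an unadjusted p under 0.05, 6 of the 10 genes were lower, namely Mt2, Gsr, Gclm, Srxn1, Txnrd1 and Slc7a11, the last of which passed the filter through the DMSO hearts, beside 6.73% of all genes tested, and 7.1% of all genes were higher. Gsr differed by -0.43 ± 0.17 (SE, adjusted p = 0.3), Gclm by -0.39 ± 0.13 (adjusted p = 0.227), Srxn1 by -0.38 ± 0.15 (adjusted p = 0.312) and Txnrd1 by -0.28 ± 0.11 (adjusted p = 0.301). Nqo1 differed by -0.21 ± 0.17 (adjusted p = 0.632) and Gclc by -0.13 ± 0.08 (adjusted p = 0.501). Slc7a11 alone had every A10i heart below every DMSO heart, which was so for 4.11% of all genes tested. Since both infarcted groups were compared with the same 3 sham hearts, their fold changes against sham are not independent of each other.

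**Figure D4:**
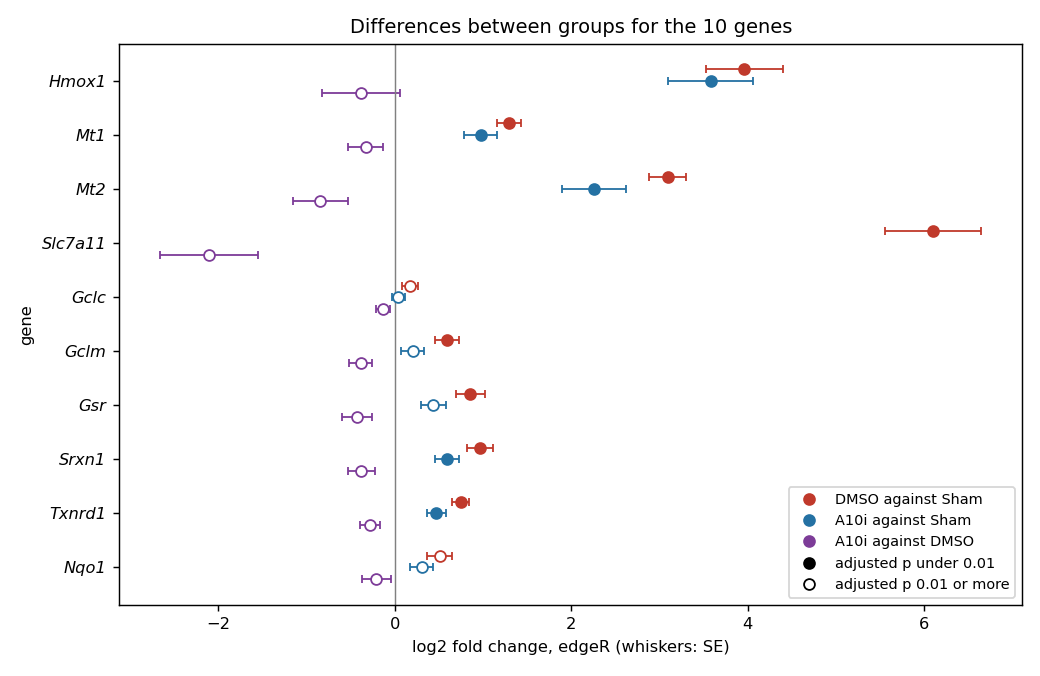
The log2 fold change of each gene (horizontal axis) with its SE is plotted for the 3 comparisons; filled points have an adjusted p under 0.01 by edgeR and open points do not. In DMSO against sham, 8 points are filled, in A10i against sham 5 of the 9 tested, and in A10i against DMSO none, with all 10 points left of 0.

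The regulators of the NRF2 pathway moved in both directions. Of 9 regulators, 3 were higher and none lower in DMSO against sham at an adjusted p under 0.01, and their median log2 fold change was 0.17. Of all genes tested, 12.9% were higher and 9.6% lower in DMSO, and 13.7% and 9.11% in A10i against sham. The counts of this and the following lists stand beside these shares, and a count near them is no result about a list. Nfe2l2, which encodes NRF2, rose from 72.3 ± 2.89 to 112 ± 7.45 CPM (SD, n = 3 and 4), a log2 fold change of 0.63 ± 0.08 (adjusted p = 0.00048), and the small MAF genes Maff and Mafk rose by 2.20 ± 0.16 (adjusted p = 4.17e-05) and 0.92 ± 0.15 (adjusted p = 0.0017). Nfe2l1 (-0.34 ± 0.12), Cul3 (-0.30 ± 0.09) and Keap1 (-0.23 ± 0.08) were below 0 with adjusted p of 0.0474, 0.0239 and 0.0388. Mafg (0.17 ± 0.09), Sqstm1 (0.18 ± 0.10), which encodes the autophagy adapter p62, and Bach1 (-0.14 ± 0.08) overlapped with sham.

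In A10i against sham hearts, Maff (1.48 ± 0.11) and Nfe2l2 (0.28 ± 0.06) were higher at adjusted p of 5.69e-05 and 0.00588, whereas Nfe2l1 (-0.46 ± 0.10), Cul3 (-0.38 ± 0.08) and Bach1 (-0.25 ± 0.06) were lower at adjusted p of 0.00544, 0.00362 and 0.00946. Keap1 (-0.16 ± 0.07), Mafk (0.14 ± 0.09), Mafg (-0.09 ± 0.06) and Sqstm1 (-0.03 ± 0.12) did not pass. Between A10i and DMSO hearts, Maff, Mafk, Nfe2l2 and Mafg did not overlap between the groups. Every A10i heart lay below every DMSO heart for these genes, as for 4.11% of all genes tested. Their log2 fold changes were -0.72 ± 0.13, -0.78 ± 0.15, -0.36 ± 0.08 and -0.27 ± 0.08, with adjusted p by edgeR of 0.0731, 0.0802, 0.096 and 0.173, none past 0.01. DESeq2 gave 0.000453, 0.000457 and 0.00111 for the first 3 and 0.0514 for Mafg. It called 0.714% of the genes that it tested lower at an adjusted p under 0.01.

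Of 20 other NRF2 targets tested, 5 were higher and 1 lower in DMSO against sham, with a median log2 fold change of 0.06. Their summed level was 847 to 862 CPM in sham, 909 to 985 in DMSO and 861 to 953 in A10i hearts, so that every DMSO heart lay above every sham heart. Akr1b8, an aldo-keto reductase, and Ugdh, which makes UDP-glucuronate, rose by 2.28 ± 0.29 (SE, adjusted p = 0.000649) and 1.35 ± 0.16 (adjusted p = 0.000317), and Ephx1, the microsomal epoxide hydrolase, fell by 0.68 on the log2 scale (adjusted p = 0.00467). Against sham, 6 were higher and none lower in A10i hearts, and 4 genes (G6pdx, Pgd, Akr1b8 and Ugdh) were higher in both comparisons. G6pdx and Pgd encode the enzymes of the pentose phosphate pathway that supply NADPH. The smallest p of the list in A10i against DMSO was that of Taldo1 (-0.32 ± 0.10, adjusted p = 0.195). Gpx2 was at 0 in all hearts.

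In the glutathione system, 5 genes were higher and 2 lower of 18 tested in DMSO against sham, with a median of -0.00. Gpx3, the secreted glutathione peroxidase, rose by 1.43 ± 0.20 (SE, adjusted p = 0.00089) and Gpx7 by 1.31 ± 0.25 (adjusted p = 0.00347). Cth, which makes cysteine from cystathionine, fell from 1.87 ± 0.356 to 0.524 ± 0.268 CPM (SD, adjusted p = 0.00444), and Glrx2 fell by 0.42 on the log2 scale (adjusted p = 0.00596). Slc3a2, the heavy chain that pairs with Slc7a11, was among the 5 genes that were higher in both infarcted groups, with 31.7 ± 1.56 CPM in sham, 70.7 ± 8.56 in DMSO and 58.7 ± 6.51 in A10i hearts (SD). The A10i comparison with sham had 7 higher and 3 lower genes of 19. It also tested Cbs, which was at 0.0837 ± 0.0776 CPM in sham (SD) and did not pass the filter in DMSO against sham. Cbs can have passed only through the A10i hearts, so that this count of 7 is a description. Cth had the smallest p of the list in A10i against DMSO, at 1.42 ± 0.39 (adjusted p = 0.161).

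In the thioredoxin and peroxiredoxin system, 2 genes were higher and 2 lower of 13 tested in DMSO against sham, with a median of -0.30. Of all genes tested there, 12.9% were higher and 9.6% lower. Thioredoxin (Txn1) rose by 0.87 ± 0.10 (SE, adjusted p = 0.000249) and its inhibitor Txnip by 0.88 ± 0.20 (adjusted p = 0.00665), while the sestrins Sesn1 and Sesn3 fell by 0.85 and 0.54 (adjusted p = 0.00321 and 0.00094). For A10i hearts, 2 were higher and 4 lower than in sham. Of the superoxide dismutases and catalase, Sod3, the extracellular enzyme, rose by 1.06 ± 0.17 in DMSO hearts (adjusted p = 0.00142) and 1 of 4 was higher in each comparison with sham. Sesn3 (0.24 ± 0.11, adjusted p = 0.345) and Cat (-0.23 ± 0.17, adjusted p = 0.596) had the smallest p of these lists in A10i against DMSO.

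The phagocyte NADPH oxidase, the source of the oxidative burst, was higher as a whole: 6 of 6 genes in DMSO and 5 of 6 in A10i against sham, with medians of 1.94 and 1.69. Ncf4 rose by 2.39 ± 0.41 (SE, adjusted p = 0.00238) and Rac2 by 2.23 ± 0.26 (adjusted p = 0.000361) in DMSO hearts. Unlike Slc7a11, these genes overlapped between A10i and DMSO hearts, the smallest p being that of Cybb (0.33 ± 0.23, adjusted p = 0.579). Whether the 2 patterns differ was not tested. The summed macrophage markers were 212 to 228 CPM in sham, 308 to 497 in DMSO and 409 to 685 in A10i hearts. The part of leukocyte number in the levels of the oxidase genes was not tested.

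Heme synthesis makes the substrate of Hmox1. None of its 8 genes was higher and 2 were lower in DMSO against sham, Uros by -0.70 ± 0.10 (SE, adjusted p = 0.00094) and Cpox by -0.66 ± 0.10 (adjusted p = 0.00107), and the median was -0.46. A10i hearts had 3 of 8 lower than sham. Alas1, the first enzyme of the pathway, was at 207 ± 21.5 CPM in sham, 139 ± 39.0 in DMSO and 176 ± 16.8 in A10i hearts (SD), with an adjusted p of 0.0337 in DMSO against sham and of 0.405 in A10i against DMSO. The summed cardiomyocyte markers were lower in the same hearts, as given above, with 4 of 7 past the threshold in DMSO and 2 of 7 in A10i against sham; their part in these values was not tested.

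Of 8 genes tested for heme breakdown and transport, 3 were higher in each comparison with sham and none was lower. Haptoglobin (Hp), which binds free hemoglobin, rose from 0.892 ± 0.607 to 21.4 ± 6.84 CPM in DMSO hearts (SD, log2 fold change 4.59, adjusted p = 0.000229), and Lrp1, which takes up the heme-hemopexin complex, rose by 0.67 ± 0.13 (adjusted p = 0.00355). Cd163, the hemoglobin scavenger receptor of macrophages, had the smallest p of the list in A10i against DMSO, with 59.3 ± 19.7 against 34.6 ± 6.02 CPM (SD, log2 fold change 0.78 ± 0.22, adjusted p = 0.179). Red blood cell transcripts, a sign of blood left in the tissue, summed to 592 to 1297 CPM in sham, 232 to 3705 in DMSO and 1049 to 5026 in A10i hearts, and none of the 5 was past the threshold in any comparison. DMSO heart A105, with the most of them in its group (3705 CPM), had the least Hmox1. A117, with the most in the A10i group (5026 CPM), had 107 CPM of Hmox1, between A116 at 201 and A120 at 72.0. The part of blood in the Hmox1 level was not tested.

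In iron handling, 3 of 14 genes were higher and none lower in each comparison with sham, with a median of 0.11 in DMSO hearts. Lcn2, which encodes the siderophore-binding lipocalin 2 and is abundant in neutrophils, rose from 1.97 ± 0.250 to 54.8 ± 37.2 CPM in DMSO hearts (SD, log2 fold change 4.79 ± 0.64, adjusted p = 0.00101), and Slc11a1, the iron exporter of phagosomes, rose by 1.78 ± 0.25 (adjusted p = 0.00094). Lcn2 had the smallest p of the list in A10i against DMSO, with 22.04 ± 11.1 CPM in A10i hearts (-1.31 ± 0.50, adjusted p = 0.287).

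In zinc and copper handling, 4 of 15 genes were higher and none lower in DMSO, and 5 were higher and 1 lower in A10i against sham. The zinc importer Slc39a1 rose by 0.94 ± 0.09 (SE, adjusted p = 0.000167) and the zinc exporter Slc30a4 by 0.73 ± 0.13 (adjusted p = 0.00237) in DMSO hearts. Slc30a1, a zinc exporter that like the metallothioneins is a target of MTF1, was at 33.8 ± 0.391 CPM in sham, 33.0 ± 4.33 in DMSO and 25.4 ± 1.37 in A10i hearts (SD), and it had the smallest p of the list in A10i against DMSO (-0.37 ± 0.10, adjusted p = 0.156). Its DMSO and sham hearts overlapped (-0.04 ± 0.10, adjusted p = 0.768 by edgeR). The part of MTF1 in the Mt1 and Mt2 levels was not tested.

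Glucocorticoids also induce metallothioneins, so 8 genes of the glucocorticoid response were counted. In DMSO against sham, 4 were higher and 1 lower with a median of 0.15, and in A10i against sham 2 were higher and 1 lower. Pdk4, which encodes a pyruvate dehydrogenase kinase, rose by 2.82 ± 0.21 (SE, adjusted p = 4.4e-05) and Dusp1 by 0.83 ± 0.12 (adjusted p = 0.000716), while Klf9 fell by 0.65 (adjusted p = 0.00182). Tsc22d3, which encodes GILZ, was at 167 ± 12.7 CPM in sham, 130 ± 12.6 in DMSO and 157 ± 23.8 in A10i hearts (SD, adjusted p = 0.014 in DMSO against sham and 0.364 in A10i against DMSO). The summed level of the list was 1030 to 1231 CPM in sham, 1860 to 2561 in DMSO and 1103 to 2319 in A10i hearts. Such a sum gives most weight to abundant genes. In DMSO against sham, 4 of the 8 genes were above 0 and 4 below. The part of glucocorticoids in the metallothionein levels was not tested.

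**Figure D5:**
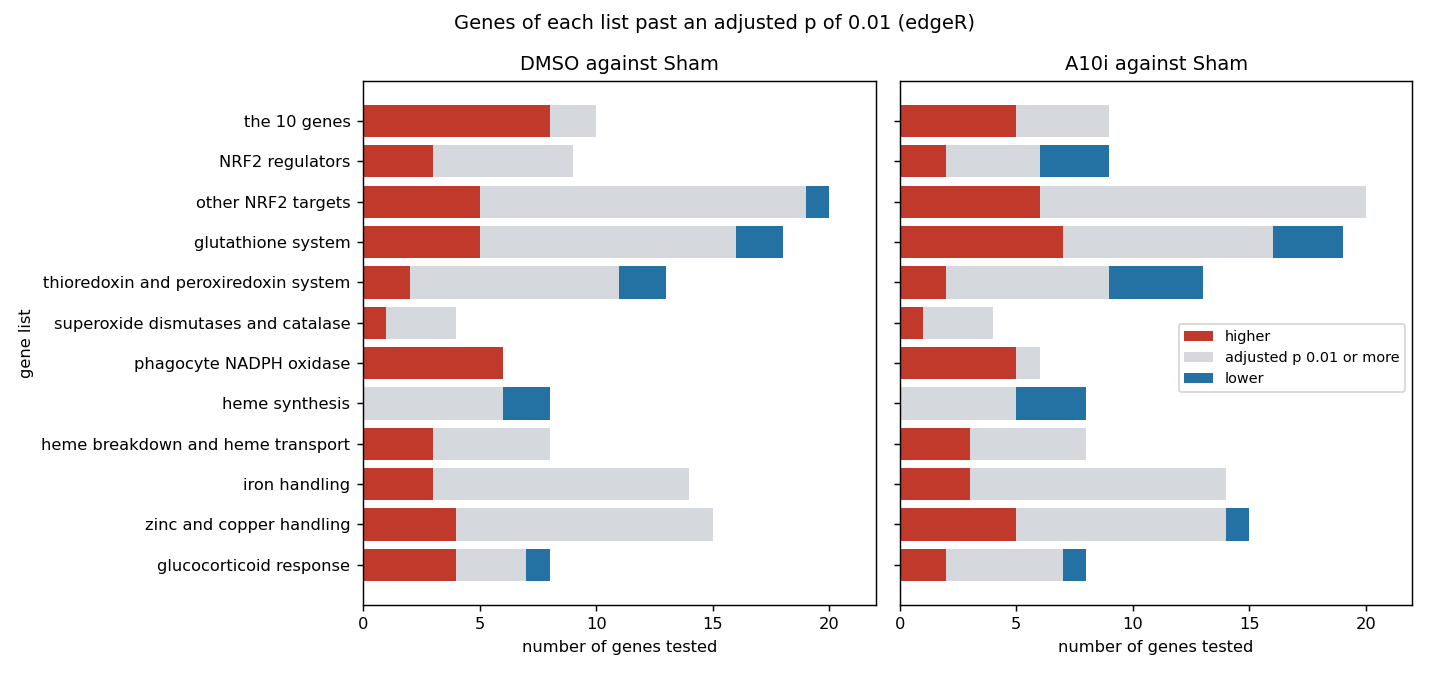
Horizontal bars count the genes tested in each list (horizontal axis) that were higher, lower or not past an adjusted p of 0.01 by edgeR, for DMSO against sham (left) and A10i against sham (right). The 10 genes and the phagocyte NADPH oxidase are mostly higher (8 of 10 and 6 of 6 in DMSO hearts), while heme synthesis has no higher gene and 2 lower ones in DMSO and 3 in A10i hearts. Heme breakdown and iron handling have 3 higher genes each and no lower one in both panels. Of all genes tested, 12.9% were higher and 9.6% lower in DMSO, and 13.7% and 9.11% in A10i against sham.

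Last, the genes with the profile most like those of Hmox1, Slc7a11 and Mt2 were found by the root mean square distance between log2 CPM values, each centred on its mean, over the 11 hearts and among 17480 genes. Closest to Hmox1 were Gm5150 (distance 0.40), Star (0.41), which encodes the steroidogenic acute regulatory protein, and Gpr39 (0.42), a zinc-sensing receptor. Star was at 1.52 CPM on average in sham, 20.6 in DMSO and 15.3 in A10i hearts. Closest to Slc7a11 were Rab44 (0.50), Il1f9 (0.53), which encodes IL-36 gamma, and F10 (0.55), which encodes coagulation factor X. F10 was at 0.212, 7.74 and 2.09 CPM on average in sham, DMSO and A10i hearts. Closest to Mt2 were Prg4 (0.32), which encodes lubricin, Sec1 (0.34) and Pdpn (0.38), which encodes podoplanin, with Prg4 at 10.9, 128.3 and 70.7 CPM. For scale, the SD of the profile itself over the 11 hearts was 1.81 for Hmox1, 2.21 for Slc7a11 and 1.35 for Mt2.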

How the data were processed

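RNA of 11 hearts was sequenced. The authors enriched poly(A) RNA, prepared strand-specific libraries, aligned reads to mm10 with GSNAP and, with featureCounts 2.0.1, counted the reads of unique position on each Ensembl gene; the strand setting is not given in the sources used here. The deposited values are raw counts, without normalization. Spike-in rows (92, at most 0.000194% of reads) were left out. GENCODE M21 named 55154 of 55421 genes.

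Each pair of groups was tested on its own libraries with edgeR 4.0.16 (filterByExpr, TMM, robust quasi-likelihood F-test, two-sided, Benjamini-Hochberg over all genes tested, threshold 0.01) in R 4.3.3. The alternatives were DESeq2 1.42.0, DESeq2 size factors, library size alone, no filter, all 11 libraries fitted jointly, 0.05 as the threshold and leaving out each library. With library size alone the median log2 fold change of all genes was 0.21 in DMSO and 0.18 in A10i against sham. Ratios within hearts were compared by exact permutation tests. TPM used the exon length in the count table. Replicates differed beyond counting error (chi-square per degree of freedom of 4.04 or more). Counting intervals are exact, at 95%. Scripts were tested on simulated data.

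The 10 genes, 11 pathway lists (126 genes), 10 marker lists (59 genes) and tests were chosen with earlier results of these data known. Of each pathway list, up to 2 genes per direction with the largest change past 0.01 in DMSO against sham are named, all NRF2 regulators, and the gene with the smallest p in A10i against DMSO. G6pdx, Pgd, Gpx2, Slc3a2, Cbs and 3 neutrophil markers were named after their values were seen.

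The other marker lists moved as follows, beside 12.9% higher and 9.6% lower of all genes tested in DMSO, and 13.7% and 9.11% in A10i against sham. In DMSO against sham, 5 of 8 macrophage, 3 of 4 monocyte, 2 of 6 fibroblast and 1 of 4 smooth muscle markers were higher, and 2 of 6 endothelial and 1 of 4 smooth muscle markers were lower. In A10i against sham, 7 macrophage, 3 monocyte, 5 fibroblast and 2 smooth muscle markers were higher, and 1 endothelial and 1 smooth muscle marker were lower. The monocyte sum in sham was low (4.76 to 5.89 CPM), and the largest monocyte log2 fold change was 11.5 in DMSO and 9.41 in A10i against sham. Such a marker can pass the filter through the infarcted hearts, in which it is high. The monocyte counts are therefore a description. None of the T and NK cell and at most 2 of 4 B cell markers passed the filter.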

Additional observations from a re-analysis of the deposited data

Results flagged for a closer look

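Among 24 groups of 4 hearts with a gene or ratio examined, 2 held a heart far from the others, where chance alone would give about 1 in 20. For Slc7a11, A10i heart A116 was at 2.38 CPM while the other 3 A10i hearts were at 0.330 to 0.585 CPM. The same heart had the highest summed neutrophil, monocyte and macrophage markers of its group, at 48.0, 83.3 and 685 CPM, and their part in its Slc7a11 level was not tested. For Gsr, DMSO heart A129 was at 51.9 CPM while the other 3 DMSO hearts were at 33.3 to 36.2 CPM. A129 also had the highest summed neutrophil, monocyte and macrophage markers of its group, at 126, 140 and 497 CPM, and the lowest cardiomyocyte markers of all hearts, at 33997 CPM.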

How the results depend on the processing

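The directions of the members held under all alternatives run except for Gclc in A10i against sham, which was below 0 without sham heart S3, within a range of -0.0196 to 0.0696 when 1 heart was left out. The number of members past the threshold in DMSO against sham was 6 to 9 over all alternatives. In A10i against sham it was 6 with DESeq2, with library size alone and at a threshold of 0.05, 5 with DESeq2 size factors, 4 with 1 fit of all 11 libraries, 3 without the filter and 2 to 5 when 1 heart was left out. These 6 were not the same genes. DESeq2 added Slc7a11, which did not pass the filter of edgeR there, library size alone added Nqo1, and the threshold of 0.05 added Gsr. In A10i against DMSO the number of members was 1 with DESeq2 and 0 otherwise. Counts of all genes past the threshold in DMSO against sham, 3858 as reported, became 6832 at a threshold of 0.05 and 1525 to 4051 when 1 heart was left out. In A10i against sham the count of 3879 became 6671 and 1620 to 4365. In A10i against DMSO the count of 0 by edgeR (1130 genes lower and 1193 higher at an unadjusted p under 0.05) became 231 with DESeq2, 43 without the filter, 11 with 1 fit of all 11 libraries, 12 at a threshold of 0.05, and 0 to 1 when 1 heart was left out. The cause of these changes was not tested, apart from the threshold itself. When 1 heart was left out, the log2 difference of the Mt2 to Mt1 ratio was 1.71 to 1.87 in DMSO and 1.09 to 1.34 in A10i against sham, and -0.70 to -0.45 in A10i against DMSO, the first value without A117 (exact permutation p = 0.0286). That of the Gclm to Gclc ratio was 0.31 to 0.49 in DMSO against sham. With 3 against 3 or 2 against 4 hearts the exact permutation test cannot go below 0.1 or 0.0667, so these p-values say nothing about stability. No paired analysis was possible because the hearts of different groups share no replicate numbers. For Slc7a11, the 4 reads of the sham hearts limit every fold against sham; leaving out hearts for this fold was added after the data were seen.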
